A study of Mus musculus with 5 samples.

Results

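The 10 genes described here encode the core of the mTOR (mechanistic target of rapamycin) complexes and a set of their direct regulators: *Mtor*, *Rptor*, *Rictor*, *Mlst8*, *Deptor*, *Tsc1*, *Tsc2*, *Rheb*, *Sesn1* and *Sesn2*. They were chosen by name, and all 10 were found among the 24421 gene symbols counted by RNAseq. The tissue was flash frozen kidney cortex from 3 *Fnip1* null mice, numbered 8637, 9210 and 9121 (*Fnip1*-/-), and 2 wildtype mice, numbered 9055 and 9056 (*Fnip1*+/+), all adult and labelled C57BL6J, with 1 library per mouse. The null allele came from ENU mutagenesis and is carried by every cell of the animal, so the comparison asks how the whole cortex, not a particular cell type, differs without Fnip1. The study's text also calls its control mice heterozygous, while the labels give *Fnip1*+/+, which is used here. Its RNAseq figure gives 3 wildtype mice, while the samples available here hold 2.

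Fnip1 binds Folliculin, and the complex acts on the lysosome surface at the Rag GTPases, through which amino acids bring mTORC1 to its activator. The kinase mTOR works in 2 complexes: mTORC1, with Raptor (*Rptor*), drives protein synthesis and growth, and mTORC2, with Rictor, phosphorylates Akt and related kinases. mLST8 belongs to both, and Deptor binds and inhibits both. Rheb, a small GTPase, switches mTORC1 on, and the TSC complex of Tsc1 and Tsc2 switches Rheb off. Sestrins are stress-induced proteins that restrain mTORC1 through GATOR2, and Sestrin2 is a leucine sensor. In the kidney, loss of *Tsc1* or *Tsc2* leads to cysts and growths. These proteins are controlled largely by binding and phosphorylation, which RNA levels do not report.

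Gene counts per library ran from 15799114 to 19132145. Values below are CPM, counts scaled to a common library size with the TMM factors of edgeR, and a count of 3 then equals 0.158 to 0.186 CPM. The quasi-likelihood test of edgeR compared the genotypes over the 13874 genes that passed a filter on low counts, with Benjamini-Hochberg adjustment over all of them, and a gene was called where the FDR was under 5% and the change 2-fold or more. *Fnip1* itself measured 20.97, 16.9 and 15.99 CPM in mice 8637, 9210 and 9121, below 51.7 and 48.6 CPM in the wildtype mice, and was called (log2 fold change -1.48). Mouse 9121 had 5954 counts of *Xist* and 7 counts over 4 Y-linked genes, against 3 to 24 and 2132 to 2543 in the other mice, so it read as female and the others as male. With all 5 mice 73 genes were called, and this count moved with each mouse, to 911 without mouse 8637, 138 without mouse 9121 and 0 without mouse 9210, 9055 or 9056. Differences of *Mtor*, *Sesn1*, *Sesn2*, *Prr5l*, *Cdkn1a* and *Nupr1* are therefore also given without mouse 8637 and without mouse 9121. Both of these omissions raised the count. Without mouse 9210 the log2 fold changes of these genes were -0.84, 0.46, -0.46, 1.21, 0.96 and 1.43, in that order. The quasi-likelihood test then gave adjusted p-values of 0.308, 0.285, 0.315, 0.199, 0.239 and 0.253, so none of them was called.

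All 10 genes passed the filter, and the lowest count of any of them in a mouse was 275. None was called by the quasi-likelihood test, where 0.526% of all genes tested were. At an unadjusted p under 0.05 there were 3 of the 10, *Mtor*, *Sesn1* and *Sesn2*, beside 25.1% of all genes. DESeq2 and the exact and likelihood ratio tests of edgeR likewise called none, but in each of them 2 genes, *Mtor* and *Sesn1*, passed the FDR of 5% at less than 2-fold. In the exact test 9.82% of all genes passed an FDR of 5%. All 3 null mice lay above both wildtype mice for *Sesn1* alone among the 10, and below both for *Mtor*, *Rptor*, *Rheb* and *Sesn2*, where 22.9% of all genes lay above and 23% below. With 10 genes these counts do not set the group apart from the background. The median log2 fold change of the 10 was -0.07, against 0.0035 over all genes tested.

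**Figure D1:**
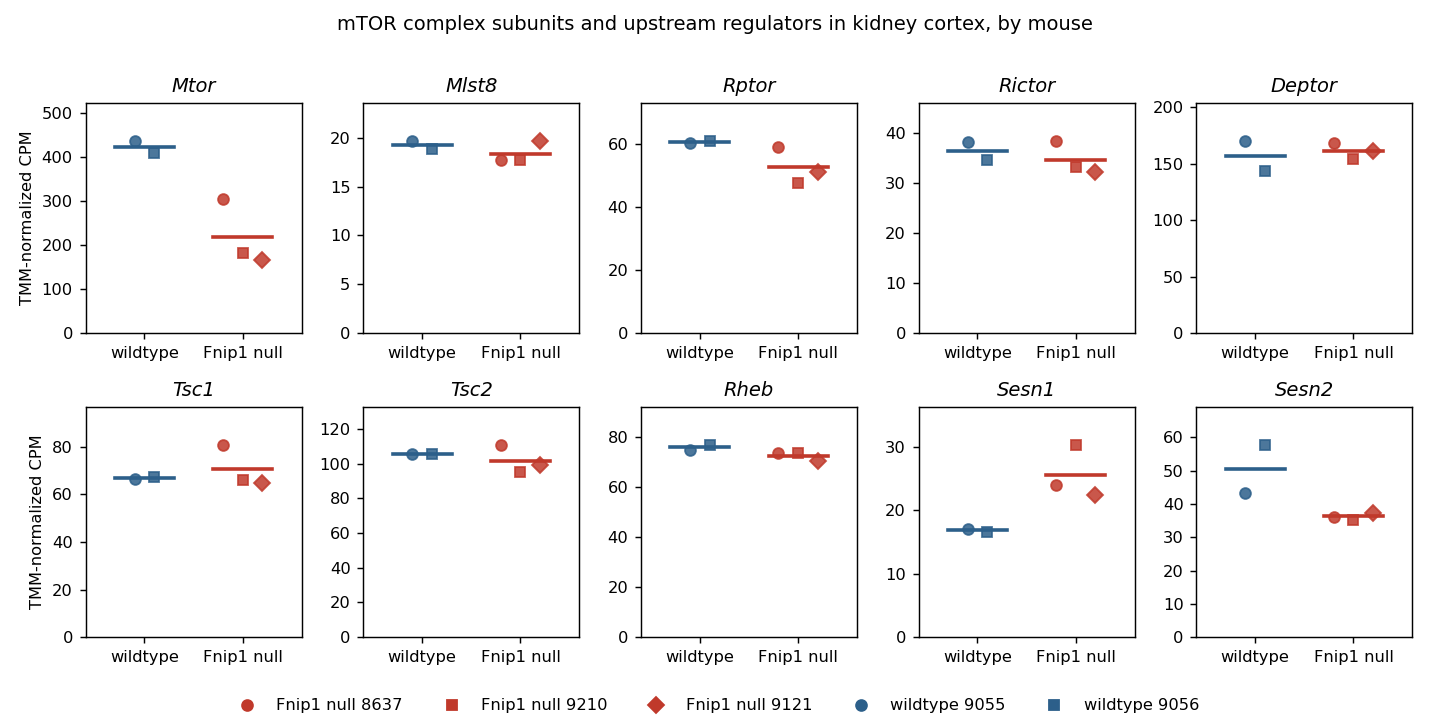
TMM-normalized CPM of the 10 genes in each mouse, with wildtype in blue and *Fnip1* null in red, each symbol a mouse and each bar the mean of its genotype (n = 2 and n = 3). *Mtor* and *Sesn2* sit lower and *Sesn1* higher in all 3 null mice, while the other panels show the genotypes close together.

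The sequences before the start sites of the 3 genes with the largest differences are shown because these genes moved in different directions. They are RefSeq windows of GRCm38.p6, 250 bases before to 50 after a start, written 5′ to 3′ on the strand of the gene, with each CCAAT box on either strand (CCAAT or ATTGG) in capitals. *Mtor* lies at chr4:148448332-148448631 (plus strand), *Sesn1* has an outer start at chr10:41810324-41810623 and an inner start at chr10:41887189-41887488 (plus strand), and *Sesn2* lies at chr4:132510407-132510706 (minus strand).
Mtor: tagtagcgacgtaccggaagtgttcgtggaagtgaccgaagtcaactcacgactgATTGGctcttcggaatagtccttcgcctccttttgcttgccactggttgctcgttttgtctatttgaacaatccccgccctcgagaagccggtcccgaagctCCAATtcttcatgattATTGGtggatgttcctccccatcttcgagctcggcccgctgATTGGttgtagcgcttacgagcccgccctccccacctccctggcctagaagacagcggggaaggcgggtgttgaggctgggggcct
Sesn1 outer start: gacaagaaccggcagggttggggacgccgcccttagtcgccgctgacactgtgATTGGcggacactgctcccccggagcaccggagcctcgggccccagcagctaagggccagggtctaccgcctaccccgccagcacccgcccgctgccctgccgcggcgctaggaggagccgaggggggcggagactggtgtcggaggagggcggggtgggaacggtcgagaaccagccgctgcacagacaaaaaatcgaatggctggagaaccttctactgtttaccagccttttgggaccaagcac
Sesn1 inner start: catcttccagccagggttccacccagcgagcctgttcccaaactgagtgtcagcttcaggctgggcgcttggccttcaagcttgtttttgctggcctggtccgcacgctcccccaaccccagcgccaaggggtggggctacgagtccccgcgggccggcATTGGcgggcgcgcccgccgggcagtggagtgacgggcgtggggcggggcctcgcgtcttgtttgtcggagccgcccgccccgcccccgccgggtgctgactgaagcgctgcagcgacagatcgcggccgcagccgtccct
Sesn2: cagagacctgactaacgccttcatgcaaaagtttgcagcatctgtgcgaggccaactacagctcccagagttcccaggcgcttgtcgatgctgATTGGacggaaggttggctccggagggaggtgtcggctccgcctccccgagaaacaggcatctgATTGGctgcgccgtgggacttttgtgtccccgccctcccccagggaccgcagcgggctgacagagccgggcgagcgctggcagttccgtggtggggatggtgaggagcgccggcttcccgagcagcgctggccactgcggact
The *Mtor* window held 4 CCAAT boxes, *Sesn2* 2 and each *Sesn1* window 1, where 37.4% of all 32851 windows held at least 1. The share of windows with 2 or 4 copies was not counted, so these copy numbers have no background here. Of the other members with a window, *Rictor* had 1, and *Rptor*, *Mlst8*, *Tsc1*, *Tsc2* and *Rheb* had none. The E-box CACGTG, the core bound by TFEB and TFE3, was found in the *Rheb* window only, beside 7.15% of all windows. *Deptor* had no window and was not searched. The ATF4 element TGATGNAA and the cAMP element TGACGTCA were in no window of the other members, with 3.97% and 1.79% of all windows holding them. These matches describe the letters and were not tested for binding.

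*Mtor*, the kinase shared by both complexes, had the largest fold change of the 10. Null mice 8637, 9210 and 9121 had 304, 182 and 166 CPM, and the wildtype mice had 435 and 408 CPM. The wildtype mice were within 1.07 times of each other, while the null mice spread over 1.84 times, with mouse 8637 between the wildtype mice and the other null mice. Taking the wildtype mean as 100%, *Mtor* stood at 72.2% in mouse 8637, 43.1% in mouse 9210 and 39.3% in mouse 9121. The means were 217 ± 75.7 CPM (SD, n = 3) in *Fnip1* null and 421 ± 19.4 CPM (SD, n = 2) in wildtype mice. On the log2 scale the difference was -0.96, with a standard error (SE) of 0.26, a 95% interval of -1.58 to -0.33 and an adjusted p of 0.108 in the quasi-likelihood test. Without mouse 8637 the log2 fold change was -1.27 (adjusted p = 0.00448), past both thresholds. Without mouse 9121, the mouse that read as female, it was -0.79 (adjusted p = 0.128). EdgeR's exact test gave an adjusted p of 0.0167, and leaving out 1 mouse moved that p between 1.55e-15 and 0.346.

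The *Mtor* gene spans 109.1 kb of chromosome 4 (148448611 to 148557683, plus strand, GRCm38), with 58 exons in its longest consensus coding transcript. *Angptl7*, a secreted angiopoietin-like gene, lies inside *Mtor* on the opposite strand and shares none of its annotated exon bases. It was low, at 12.6, 9.09 and 2.69 CPM in the null mice and 16.3 and 12.3 CPM in the wildtype mice, and the genotypes overlapped. *Exosc10*, the catalytic subunit of the nuclear RNA exosome, begins 745 bases beyond the end of *Mtor* on the same strand and was level, with 37.3 to 42.3 CPM in null and 39.6 to 39.9 CPM in wildtype mice. For *Exosc10* the log2 fold change was -0.02 (SE 0.10). The gene after *Mtor* thus overlapped between genotypes, while *Mtor* did not.

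**Figure D2:**
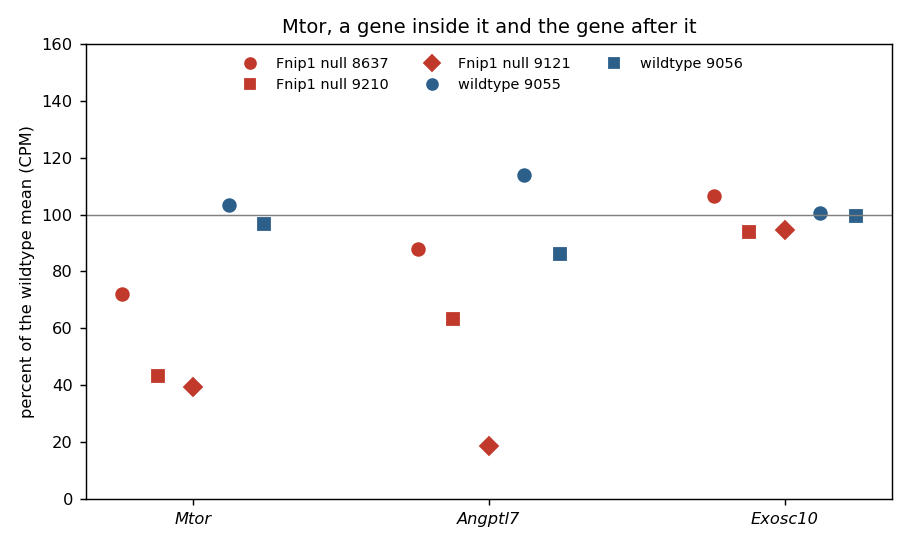
Level of *Mtor*, of *Angptl7* inside it and of *Exosc10* after it in each mouse as a percent of the wildtype mean of TMM-normalized CPM. *Mtor* is below both wildtype mice in every null mouse, with mouse 8637 the highest of the null mice, while *Exosc10* stays between 93.8% and 106%.

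*Sesn1* and *Sesn2* differed in opposite directions. *Sesn1*, a p53-responsive sestrin on chromosome 10 (41809935 to 41908424, plus strand), measured 24.0, 30.2 and 22.4 CPM in null mice 8637, 9210 and 9121 and 17.1 and 16.6 CPM in the wildtype mice. Every null mouse was above both wildtype mice, with mouse 9210 highest. Its means were 25.5 ± 4.15 CPM (SD, n = 3) in *Fnip1* null and 16.9 ± 0.311 CPM (SD, n = 2) in wildtype mice. The difference was 0.60 on the log2 scale (SE 0.16, 95% interval 0.22 to 0.98, adjusted p = 0.104). Without mouse 8637 the value was 0.65 (adjusted p = 0.0476), without mouse 9121 it was 0.69 (adjusted p = 0.0821), and without mouse 9210 it was 0.46 (adjusted p = 0.285). *Sesn2*, the leucine sensor, on chromosome 4 (132492032 to 132510501, minus strand), measured 36.2, 35.3 and 37.3 CPM in the null mice and 43.3 and 57.7 CPM in the wildtype mice. Here the null mice were within 1.06 times of each other and below both wildtype mice, and it was the wildtype mice that spread, over 1.33 times. Its difference was -0.48 on the log2 scale (SE 0.14, 95% interval -0.80 to -0.15, adjusted p = 0.114). It was -0.47 without mouse 8637 (adjusted p = 0.0727), -0.50 without mouse 9121 (adjusted p = 0.144) and -0.25 without wildtype mouse 9056 (adjusted p = 0.584), so its size rested on that mouse.

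A ratio of counts of 2 genes within a library does not depend on how libraries are scaled. *Sesn1* had 0.665, 0.856 and 0.6 counts for each count of *Sesn2* in null mice 8637, 9210 and 9121, and 0.395 and 0.289 in the wildtype mice. The mean log2 ratio was thus higher by 1.05 in *Fnip1* null mice, with no overlap between genotypes. *Deptor* had 0.554, 0.850 and 0.973 counts for each count of *Mtor* in the null mice and 0.391 and 0.352 in the wildtype mice, also higher in every null mouse and by 1.05 in the mean log2 ratio. The log2 fold change of *Deptor* itself was 0.04, so this ratio mostly repeats the difference of *Mtor*. Likewise, the ratio of *Sesn1* to *Sesn2* joins the 2 differences given above. The ratio of *Tsc1* to *Tsc2* lay above both wildtype mice in every null mouse by a small margin, with 0.655 to 0.729 in null and 0.629 to 0.639 in wildtype mice. The ratio of *Rptor* to *Rictor* overlapped, at 1.43 to 1.597 and 1.59 to 1.76. In the exact permutation test, two-sided over the 5 mice, the p was 0.2 for each of the first 3 ratios and 0.4 for *Rptor* to *Rictor*, and 0.267 and 0.4 after adjustment over the 4 ratios. The smallest p this test can give here is 0.2, because the p of the smaller tail is doubled, so it cannot pass 0.05.

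The complex subunits and the TSC arm differed little between genotypes. *Rptor*, which defines mTORC1, measured 58.9, 47.6 and 51.2 CPM in null mice 8637, 9210 and 9121 and 60.4 and 60.8 CPM in the wildtype mice, on chromosome 11 (119602905 to 119899576). All null mice were below both wildtype mice, mouse 8637 only just, and the log2 fold change was -0.21 (95% interval -0.48 to 0.07, adjusted p = 0.299). *Rictor*, which defines mTORC2, on chromosome 15 (6708379 to 6800401), ran from 32.1 to 38.3 CPM in null and from 34.6 to 38.1 CPM in wildtype mice, with a log2 fold change of -0.07 (95% interval -0.36 to 0.21). *Mlst8*, the subunit of both complexes, on chromosome 17 (24473551 to 24479078), had 17.7 to 19.6 CPM in null and 18.9 to 19.6 CPM in wildtype mice and a log2 fold change of -0.07 (95% interval -0.34 to 0.21). For *Deptor*, the inhibitor of both complexes on chromosome 15 (55112317 to 55259271), the null mice had 154 to 168 CPM and lay within the wildtype mice at 143 and 170 CPM. Its log2 fold change was 0.04 (95% interval -0.21 to 0.30). None of these 4 intervals reaches 2-fold, and each includes 0.

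*Tsc1*, the scaffold of the TSC complex, on chromosome 2 (28641228 to 28691167), had 80.6 CPM in null mouse 8637 and 66.0 and 64.95 CPM in mice 9210 and 9121, against 66.4 and 67.4 CPM in wildtype mice. Mouse 8637 was the one high mouse, and the log2 fold change of 0.08 (95% interval -0.21 to 0.36) became -0.03 without it. *Tsc2*, the subunit that switches Rheb off, on chromosome 17 (24595816 to 24632630), had 95.3 to 111 CPM in null mice and 105 and 106 CPM in wildtype mice, a log2 fold change of -0.05 (95% interval -0.28 to 0.18). *Rheb*, the direct activator of mTORC1, on chromosome 5 (24802823 to 24842624), was the most even of the 10, with its highest mouse 1.09 times its lowest. It had 70.3 to 73.8 CPM in null and 75.0 and 76.8 CPM in wildtype mice. The groups did not overlap, at a log2 fold change of -0.06 (95% interval -0.26 to 0.13) that became 0.097 when libraries were scaled by size alone. Over all genes tested, the highest mouse was a median of 1.43 times the lowest, and 7 of the 10 genes spread less than that, all but *Mtor*, *Sesn1* and *Sesn2*.

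**Figure D3:**
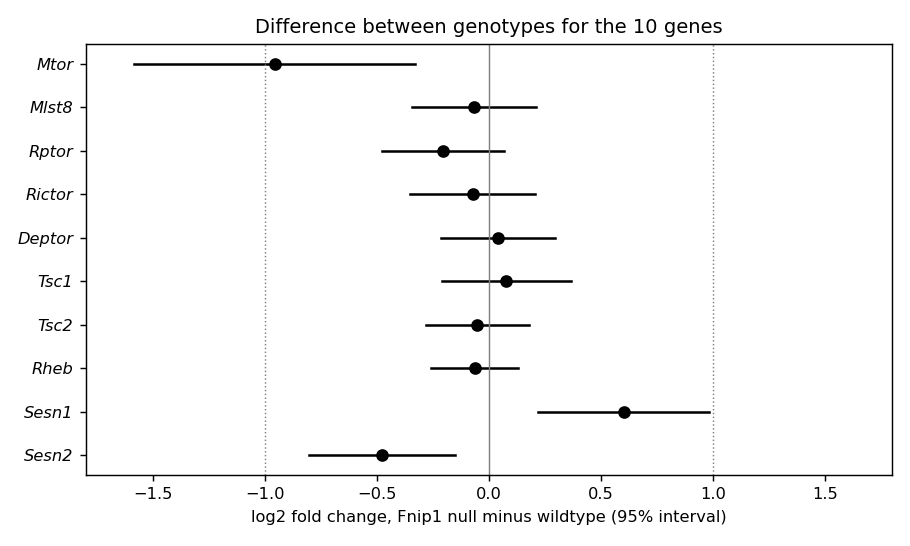
Log2 fold change of *Fnip1* null over wildtype tissue for the 10 genes, with the 95% interval from the quasi-likelihood test, a solid line at no change and dotted lines at 2-fold. The intervals of *Mtor*, *Sesn1* and *Sesn2* lie to one side of 0 and those of the other 7 genes include it.

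Part of some transcripts is also covered by another gene. The 3′ ends of *Tsc2* and *Pkd1*, the gene of polycystin 1, share 693 exon bases on opposite strands, *Mlst8* shares 997 with *Bricd5*, *Deptor* 303 with *Gm9920* and *Rptor* 84 with *Rptoros*. Reads over 2 genes were set aside, and these came to 0.741% to 0.803% of reads in a library, and a kit that does not keep strand cannot tell such reads apart. *Pkd1* had 52.8 to 60.6 CPM in null and 45.3 and 56 CPM in wildtype mice, with a difference of 0.14 on the log2 scale (SE 0.12, adjusted p = 0.501), and *Bricd5* and *Rptoros* had no counts. Of the other coding neighbours in the count table within 5000 bases, *E4f1* and *Pgp* beside *Mlst8*, *Nthl1* beside *Tsc2* and *Cep57l1* beside *Sesn1* had log2 fold changes of 0.22, -0.22, -0.07 and -0.16, with adjusted p-values from 0.199 to 0.853.

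Levels can be set side by side between genes only per length, and here the CPM was divided by the length in kb of each gene's longest consensus coding transcript. On this scale *Mtor* led in wildtype tissue, at 49.2 ± 2.26 CPM per kb (SD, n = 2). *Rheb* followed at 42.5 ± 0.700, then *Deptor* at 18.3 ± 2.21, *Tsc2* at 17.5 ± 0.0172 and *Sesn2* at 14.5 ± 2.93 CPM per kb (SD, n = 2). The values of *Deptor* and *Tsc2* overlapped between mice, so their order is not set by these data. *Rptor* had 9.19, *Tsc1* 8.69, *Mlst8* 4.99, *Sesn1* 4.42 and *Rictor* 3.90 CPM per kb in the wildtype mean, with no overlap between neighbours in this order. In *Fnip1* null tissue *Rheb* led, at 40.7 ± 1.11 CPM per kb (SD, n = 3), and *Mtor* came next at 25.4 ± 8.84, overlapping *Deptor* at 18.9 ± 0.814. *Sesn1* stood above *Mlst8* in every null mouse, at 5.87 to 7.94 against 4.59 to 5.09 CPM per kb, the reverse of wildtype. The order depended on the length used. With all annotated exons of a gene merged, the length of *Rheb* went from 1.78 to 7.72 kb. *Rheb* then fell to the fifth place in wildtype tissue at 9.83 CPM per kb, and *Mtor* stayed first at 41.7. By this length *Mtor* also had the highest mean in null tissue, at 21.5 CPM per kb, against 18.2 for *Deptor* and 9.40 for *Rheb*.

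**Figure D4:**
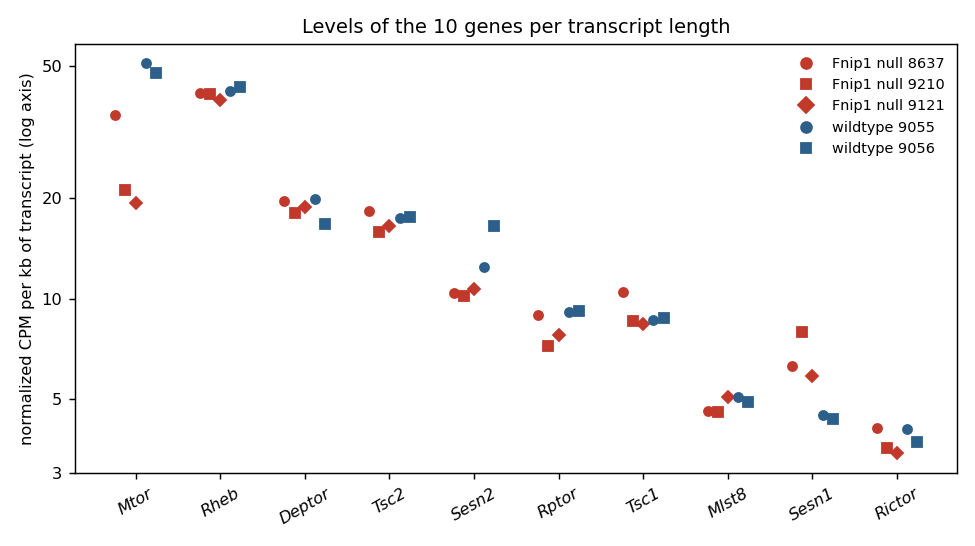
TMM-normalized CPM per kb of transcript for the 10 genes in each mouse on a log axis, ordered by the wildtype mean. *Mtor* and *Rheb* are the highest, *Rictor* the lowest, and *Mtor* is the gene whose null mice spread furthest, from 19.3 to 35.5.

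The other genes of the pathway were read from the same test, in lists of 72 genes that all passed the filter. None was called by the quasi-likelihood test, and at an unadjusted p under 0.05 there were 11 higher and 3 lower, beside 25.1% of all genes in both directions. DESeq2, the likelihood ratio test and the exact test each called 3 of them, *Cdkn1a*, *Nupr1* and *Prr5l*, all higher, where they called 3.51%, 4.53% and 4.11% of all genes. For 72 genes 3 calls are near that background. *Prr5l*, whose protein binds mTORC2, measured 7.66, 8.08 and 9.39 CPM in null mice 8637, 9210 and 9121 and 3.73 and 3.66 CPM in wildtype mice. The difference for *Prr5l* was 1.18 on the log2 scale (SE 0.18), with an adjusted p of 0.0550 in the quasi-likelihood test, and it was 1.25 without mouse 8637 (adjusted p = 0.0124, called) and 1.09 without mouse 9121 (adjusted p = 0.0598). All null mice were above both wildtype mice for *Prr5l*, and it had the lowest adjusted p of the 72 genes. Among the 7 other subunits and assembly factors, 2 had positive and 5 negative fold changes, with a median log2 fold change of -0.13. *Tti1*, a factor that helps to assemble the complexes, was the most negative at -0.28 (SE 0.10, adjusted p = 0.167). *Tbc1d7*, the third subunit of the TSC complex, and the Rheb relative *Rhebl1* were at -0.03 and 0.0095.

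Amino acid sensing genes, 15 in all, had a median log2 fold change of -0.12, with 10 negative and 5 positive. The most negative was *Castor1*, the arginine sensor, listed under its older symbol *Gatsl3*, at 14.1, 9.74 and 7.18 CPM in null mice 8637, 9210 and 9121 and 15.4 and 16.3 CPM in wildtype mice. All null mice were below both wildtype mice, and the difference was -0.62 on the log2 scale (SE 0.27, adjusted p = 0.222). *Sesn3*, the remaining sestrin, was the most positive at 0.17 (SE 0.20, adjusted p = 0.620), and its genotypes overlapped. For the 17 genes of growth factor and energy input the median was 0.02, with 9 positive and 8 negative. *Irs2*, an adaptor of the insulin receptor, had 33.04, 22.9 and 25.3 CPM in the null mice and 17.9 and 16.9 CPM in the wildtype mice, higher by 0.64 on the log2 scale (SE 0.18, adjusted p = 0.111). *Igf1r*, the receptor of insulin-like growth factor, was the most negative at -0.43 (SE 0.25, adjusted p = 0.330), with overlapping genotypes.

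The 16 effector genes had a median log2 fold change of 0.02, with 9 positive and 7 negative. *Sgk1*, a kinase that mTORC2 phosphorylates and that promotes sodium uptake in the distal nephron, was the most positive. It had 194, 323 and 199 CPM in the null mice and 147 and 146 CPM in the wildtype mice, higher by 0.70 on the log2 scale (SE 0.24, adjusted p = 0.145). *Larp1*, which binds the messages of ribosomal proteins, was the most negative at -0.27 (SE 0.12, adjusted p = 0.233).

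**Figure D5:**
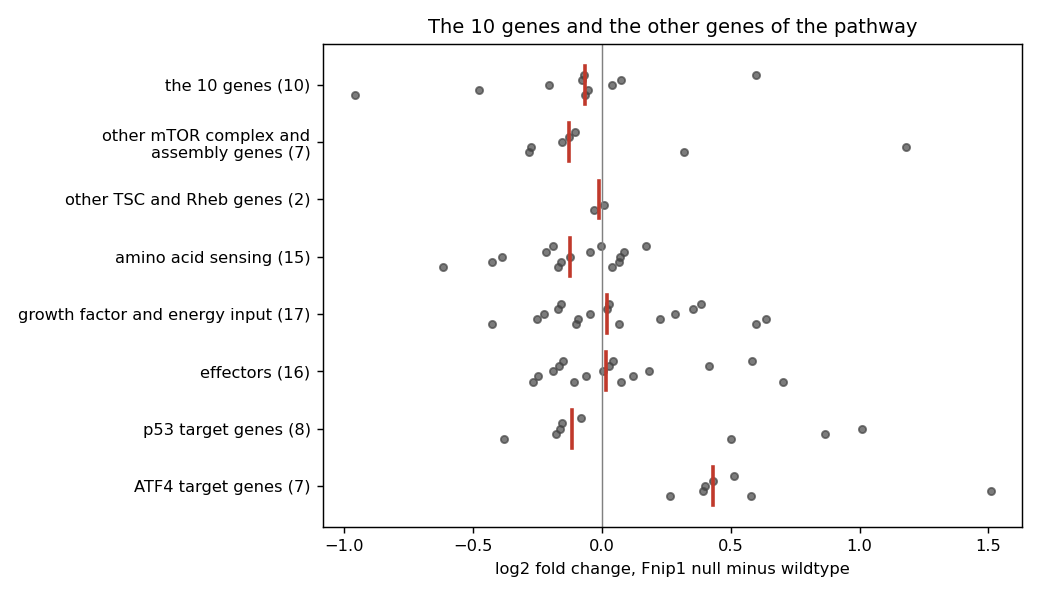
Log2 fold change of each gene of the 10 and of the pathway lists, with the number of genes in brackets and the median of each list as a red line. The medians lie between -0.13 and 0.02 except for the ATF4 target genes at 0.43, and *Nupr1*, *Prr5l* and *Cdkn1a* are the genes above 1.

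Sestrin genes respond to p53 and to ATF4, so genes known as targets of these factors were set beside them. Of 8 p53 target genes, 3 had positive and 5 negative log2 fold changes, with a median of -0.12. The 3 positive genes, *Cdkn1a*, *Btg2* and *Gadd45a*, were also the only ones with an unadjusted p under 0.05 in the quasi-likelihood test. *Btg2* was at 0.86 (SE 0.16, adjusted p = 0.0699), with every null mouse above both wildtype mice. *Gadd45a* was at 0.50 (SE 0.20, adjusted p = 0.194), and its genotypes overlapped. *Cdkn1a*, the cell cycle inhibitor p21, had 13.4, 13.0 and 10.3 CPM in null mice 8637, 9210 and 9121 and 6.15 and 6.002 CPM in wildtype mice, higher by 1.01 on the log2 scale (SE 0.18, adjusted p = 0.0644). Without mouse 8637 the value for *Cdkn1a* was 0.94 (adjusted p = 0.0236), and without mouse 9121 it was 1.12 (adjusted p = 0.0372, called). *Ccng1*, cyclin G1, was the most negative at -0.38 (SE 0.16, adjusted p = 0.204). All 7 ATF4 target genes had positive log2 fold changes, with a median of 0.43, and *Sesn2* was at -0.48. Over all 13874 genes tested, 7009 were positive. Of the 7, 2 had an unadjusted p under 0.05 in the quasi-likelihood test, beside 25.1% of all genes, and none was called by it. All 3 null mice lay above both wildtype mice for 3 of the 7, beside 22.9% of all genes. Whether the 7 genes differ as a group was not tested. Highest was *Nupr1*, a stress-induced chromatin protein, at 10.01, 16.5 and 18.3 CPM in the null mice and 5.71 and 4.80 CPM in the wildtype mice, higher by 1.51 on the log2 scale (SE 0.29, adjusted p = 0.0710). Leaving out mouse 8637 gave 1.73 for *Nupr1* (adjusted p = 0.00594, called) and leaving out mouse 9121 gave 1.34 (adjusted p = 0.0707). Lowest among those with at least 1 CPM was *Cebpb*, at 0.39 (SE 0.29, adjusted p = 0.432).

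Markers of several cell types differed between the same mice. The summed level of 6 proximal tubule markers was 7750 to 10012 CPM in null and 10544 to 11362 CPM in wildtype mice, and within the null mice it was highest in mouse 8637 and lowest in mouse 9121, the order also seen for *Mtor*. More of that sum came from *Slc34a1*, at 5364, 4817 and 3960 CPM in null mice 8637, 9210 and 9121, than from the other 5 markers together in each null mouse. That order also held for *Cubn* (527, 388 and 363 CPM), *Slc5a2* (469, 425 and 365 CPM) and *Slc5a12* (721, 571 and 457 CPM). It did not hold for *Lrp2*, at 1930, 1379 and 1549 CPM, or *Aqp1*, at 999.8, 931 and 1057 CPM. Of these 6 markers, 3 were lower in every null mouse and 2, *Slc5a2* and *Slc5a12*, were higher. Podocyte markers summed to 556.5 to 664 CPM in null and 310 to 313 CPM in wildtype mice, with 3 of 3 higher, and collecting duct markers to 483 to 642 and 366 to 376 CPM, with 4 of 4 higher. Endothelial markers summed to 218 to 290 and 121 to 201 CPM, with 2 of 4 higher, while *Pecam1* and *Cdh5* overlapped. Leukocyte markers summed to 63.2 to 111 and 80.4 to 90.1 CPM, with 4 of 7 higher and 2, *Csf1r* and *Cd79a*, lower. *Cd79a* was at 0 in the null mice, and *Cd3e* overlapped. The largest leukocyte value in each mouse was *Csf1r*, one of the 2 lower, so the sum does not show the 4 that were higher. *Csf1r* had 36.4 to 63.8 CPM in null and 68.4 and 72.3 CPM in wildtype mice. Markers of the thick ascending limb summed to 6420 to 9890 and 6275 to 7331 CPM. Those of the distal convoluted tubule summed to 971 to 1091 and 678 to 791 CPM. Nearly all of that sum was *Slc12a3*, at 959 to 1073 CPM in null and 666 and 771 CPM in wildtype mice. The other marker, *Pvalb*, overlapped between genotypes. Adipocyte markers summed to 49.2 to 169 CPM in null and 26.5 to 32.6 CPM in wildtype mice, with 2 of 4, *Fabp4* and *Lep*, higher. Most of each sum was *Fabp4*, at 48.4, 138 and 89.3 CPM in null mice 8637, 9210 and 9121 and 31.8 and 25.0 CPM in wildtype mice. *Lep* had only 2, 7 and 8 counts in the null mice and 0 and 1 in the wildtype mice. *Adipoq* and *Plin1* overlapped, and mouse 8637 had 0.589 CPM of *Adipoq* against 0.497 and 1.31 CPM in wildtype mice. The part of these markers in the values of *Mtor*, *Sesn1* and *Sesn2* was not tested, and in whole cortex fewer cells of a type and less RNA per cell cannot be told apart.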

How the data were processed

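RNA of kidney cortex from 3 *Fnip1* null and 2 wildtype mice was sequenced by the authors as paired ends, from libraries of a kit that does not keep strand. After removal of poor reads, the authors aligned the rest to mm10 with TopHat 2.1.0 and counted them with HTSeq 0.6.1, and the deposited counts per gene symbol are not normalized. The gene annotation and strand setting are not given in the sources used here. Reads on no gene, 9.91% to 10.8% of a library, were left out. Alignments that were not unique were also left out. They came to 31.4% in mouse 8637 and 28.3% to 29.0% in the other mice.

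The tests used R 4.3.3, edgeR 4.0.16 and DESeq2 1.42.0. Genes with fewer than 10 counts in more than 2 mice were left out. Standard errors come from the fold change and its F statistic, and 95% intervals from the t distribution of the same test. Ratios had 0.5 counts added to each gene and were tested by exact permutation over mice. Positions and lengths are from GENCODE M21 (GRCm38), matched by symbol, and promoter windows from RefSeq; 9 of the 10 genes had a window. The tests were checked on simulated counts.

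All 10 genes are named, with, for each list, the genes of the most positive and most negative change at a mean of at least 1 CPM, any gene past an FDR of 5%, and neighbours within 5000 bases, of which not all are reported here. *Btg2*, *Slc34a1*, *Lrp2*, *Aqp1*, *Cubn*, *Slc5a2*, *Slc5a12* and *Csf1r* were named after their values were seen. So were *Fabp4*, *Adipoq*, *Plin1*, *Slc12a3*, *Pvalb*, *Pecam1*, *Cdh5*, *Cd3e* and *Gadd45a*. The members and lists were chosen with earlier results of these data known. Replicates are separate mice. No library was a copy of another, since counts of mice of a genotype differed by 9.58 to 67.0 times the chi-square of counting noise per degree of freedom. Alternatives covered other tests, scalings, filters and thresholds and leaving out each mouse, and the exact test without each mouse was added after the data were seen.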

Additional observations from a re-analysis of the deposited data

How the results depend on the processing

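With 2 mice in a group, leaving out a wildtype mouse leaves a lone sample that is assumed to vary like the null mice, and the effect of depth was not tested. Of all genes, 73 were called; the exact test called 570, the likelihood ratio test 628, DESeq2 487 and an FDR of 10% 357, and leaving out 1 mouse gave 0 to 911, or 132 to 1209 with the exact test (1209 without mouse 8637, 258 without 9210, 465 without 9121, 449 without 9055 and 132 without 9056). None of the 10 genes was called in any setting except without null mouse 8637, where *Mtor* was, so leaving out 1 mouse gave 0 to 1. The log2 fold change of *Mtor* stayed negative in all 20 alternatives, between -1.27 and -0.79, that of *Sesn1* positive, between 0.46 and 0.76, and that of *Sesn2* negative, between -0.67 and -0.25. Of the 72 pathway genes, 0 were called, 3 by the exact test, the likelihood ratio test, DESeq2 and an FDR of 10%, and 0 to 3 with 1 mouse left out, *Btg2* being the third gene in the exact test without mouse 9055.

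Scaling by library size only moved the median of all genes by 0.16 on the log2 scale. Against that shift, *Rictor* went to 0.082, *Mlst8* to 0.096, *Tsc2* to 0.11 and *Rheb* to 0.097, each now positive. *Rptor* went to -0.05, *Tsc1* to 0.23, *Deptor* to 0.20, *Mtor* to -0.81, *Sesn1* to 0.76 and *Sesn2* to -0.31, and *Tsc2* was at 0.0081 with upper quartile scaling. With 1 mouse left out *Tsc1* ran from -0.026, without mouse 8637, to 0.13, and *Deptor* from -0.077, without mouse 9056, to 0.17, in the quasi-likelihood and the exact test. The signs of these 6 genes thus depend on the setting. The within-mouse ratios kept their direction with each mouse left out. No paired analysis was possible because the genotypes share no mouse numbers.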
